A study of Mus musculus with 6 samples.

Results

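Clock output genes are the transcripts through which the liver clock reaches the rest of the cell. A set of 9 such genes was described in mouse liver: Dbp, Tef, Hlf, Nfil3, Bhlhe40, Bhlhe41, Ciart, Usp2 and Wee1. They were chosen by symbol as outputs driven by E-box or D-box elements, and they are 9 of the 54532 genes with an Ensembl identifier in the count table. All 9 were among the 12795 genes that passed the filter on low counts and were tested. Liver RNA of male C57BL/6J mice labelled WT was sequenced, with 3 libraries for the HFD group and 3 for the Allantoin-H group. All mice ate a high-fat diet (HFD) for 4 weeks and then for 4 more, and over the second period the Allantoin-H mice drank water with 0.3 mg/mL allantoin, an oxidation product of uric acid. The methods start the diet at 8 weeks of age, whereas the labels read 4 weeks of age. The labels name a second dose of 0.06 mg/mL and tie neither dose to a library, so the higher dose was taken from the methods. The labels do not say that each library came from a separate mouse, so p-values measure the spread between these libraries. No chow group, batch, feeding state or time of day at collection is given, and a difference in any of these cannot be told apart from the supplement.

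The mammalian clock is a loop in which BMAL1 (gene Arntl) and CLOCK bind E-box elements and switch on their own repressors. DBP, TEF and HLF are related transcription factors of the PAR bZIP family that activate genes through D-box elements, and NFIL3 (E4BP4) represses through the same elements. Their transcripts run in opposite phase in liver: Dbp, Tef and Hlf peak from the later part of the light period to dusk, whereas Nfil3, whose gene is controlled through ROR elements (RORE), peaks towards the end of the night. Bhlhe40 and Bhlhe41 (DEC1 and DEC2) are E-box repressors. Ciart (CHRONO) encodes a repressor of BMAL1 and CLOCK, Usp2 a deubiquitinase and Wee1 a kinase that holds back entry into mitosis. The transcripts of Bhlhe40, Ciart, Usp2 and Wee1 also have their known maxima in the later light period or around dusk, and no phase is taken here for Bhlhe41. The clock of the liver is set by the light cycle through hormones and, more strongly, by the time of food intake.

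Promoter sequence from RefSeq (GRCm38.p6) was held for 7 of the 9 genes, in 8 windows of 300 bases that run from 250 bases before to 50 bases after each transcription start. Each window was searched on both strands for the E-box CACGTG, its variant CACGTT, the D-box TTANGTAA and the RORE TNGGTCA, and no match overlapped another. Ciart held 3 E-boxes, with first bases at -116, -58 and -44 from its start, and the stretch that carries them (chr3:95882257-95882354, minus strand) is shown because it is the densest of the set, with the E-boxes in capitals.
Ciart: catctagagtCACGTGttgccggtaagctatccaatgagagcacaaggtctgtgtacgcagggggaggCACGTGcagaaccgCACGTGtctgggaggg
Tef held 1 E-box in the window of each of its 2 starts, and Bhlhe41 held 1, at -153. They are shown with the E-box in capitals for the first start of Tef (chr15:81802534-81802563, plus strand), the second start of Tef (chr15:81811251-81811306, plus strand) and Bhlhe41 (chr6:145865556-145865585, minus strand).
Tef, first start: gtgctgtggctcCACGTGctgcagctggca
Tef, second start: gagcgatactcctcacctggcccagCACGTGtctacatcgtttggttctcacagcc
Bhlhe41: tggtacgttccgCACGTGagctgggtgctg
Nfil3, in contrast, held no E-box and held a RORE at -12 on the opposite strand (chr13:52981034-52981062, minus strand) and shown in capitals as it reads along the gene.
Nfil3: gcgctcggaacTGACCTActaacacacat
The second window of Tef also held a RORE. The windows of Dbp, Hlf and Usp2 held none of the 4 motifs, and no window held the D-box or the variant E-box. Among all 32851 promoter windows of the same length, 7.15% held the E-box, 4.68% its variant, 2.32% the D-box and 11.0% the RORE. A match is a run of letters and does not show a bound site. A window without a match does not show that a gene lacks the element, since sequence beyond these windows was not searched. The Usp2 window surrounds a start at 44084920, inside the gene, whose annotation begins at 44067021.

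The groups were compared with edgeR's quasi-likelihood test on the whole table, with TMM normalization and Benjamini-Hochberg adjustment. Levels are CPM, counts scaled to a common effective library size by TMM, fold changes are Allantoin-H over HFD, and a gene was called at an adjusted p under 0.05. In Allantoin-H livers 6 of the 9 genes were called higher, namely Wee1, Usp2, Ciart, Dbp, Bhlhe40 and Hlf, and 1 was called lower, Nfil3. Tef and Bhlhe41 did not pass. Of all tested genes, 24.3% were called, 11.3% higher and 13.0% lower. The groups were fully apart in 7 of the 9 genes, against 44.3% of all tested genes. In 6 of them Allantoin-H was the higher group (22.4% of all tested genes) and in 1 the lower (21.9%). The median log2 fold change was 1.26 for the 9 genes and -0.03 for all tested genes. The genes were chosen with earlier results of these data known, so these counts describe them and are not independent evidence.

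**Figure D1:**
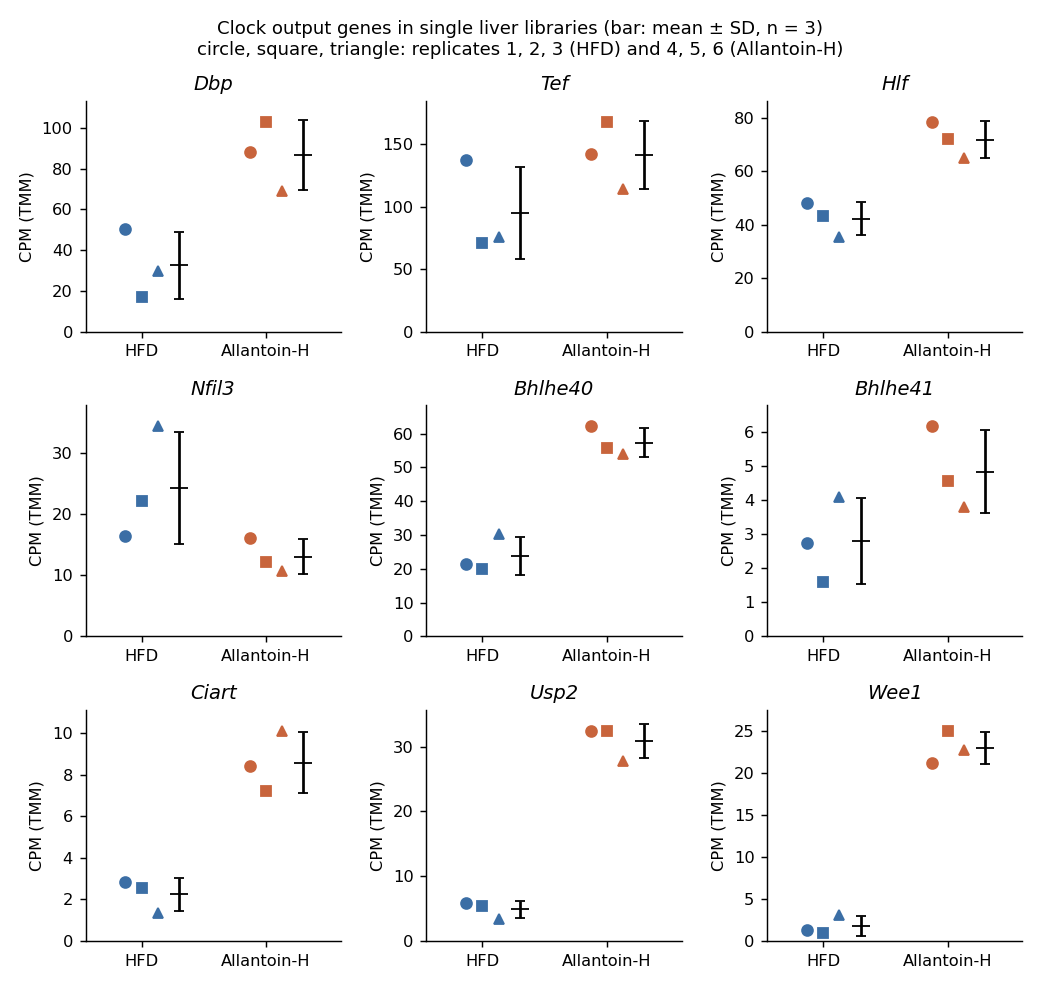
CPM of each clock output gene (vertical axes, linear from 0) in the 3 HFD libraries (blue) and the 3 Allantoin-H libraries (orange), with the mean ± SD as a black bar. Usp2 and Wee1 lie far above the HFD libraries in all 3 Allantoin-H libraries, Nfil3 lies lower, and the groups overlap for Tef and Bhlhe41.

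Wee1 (ENSMUSG00000031016, chromosome 7, 110122046 to 110143286) had the largest change of the set. It was at 1.31, 0.889 and 3.09 CPM in HFD replicates 1 to 3 and at 21.2, 24.96 and 22.7 CPM in Allantoin-H replicates 4 to 6. The Allantoin-H libraries lay close together and every one was several times above the highest HFD library. Wee1 was 12.6-fold higher, a log2 fold change of 3.66 ± 0.38 (SE; edgeR adjusted p = 0.00191). The HFD values rest on few reads, 12, 9 and 37 counts, and without HFD replicate 3 the log2 fold change was 4.38. The kinase acts on the cyclin B and CDK1 complex. Of 7 tested genes of the G2 and M phases, none was called by edgeR or DESeq2. Their median was 0.25 on the log2 scale. At an unadjusted p under 0.05, 1 of the 7 passed, Cdc25b (1.20, edgeR adjusted p = 0.0941). Its groups and those of Top2a (0.85) were fully apart with Allantoin-H higher, 2 of the 7 against 22.4% of all tested genes. Estimates were -0.88 for Cdk1, -0.62 for Plk1 and 0.23 for Mki67. Counts were low, with 8 to 32 per library for Cdk1 and 3 to 18 for Plk1. Cdk1 was at 2.45 ± 0.900 CPM (SD, n = 3) in HFD and 1.31 ± 0.794 CPM (SD, n = 3) in Allantoin-H.

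Usp2 (ENSMUSG00000032010, chromosome 9, 44067021 to 44095627) had the smallest p of the set and ranked at 10 by p among all tested genes. It was at 5.79, 5.43 and 3.43 CPM in the HFD libraries and at 32.4, 32.4 and 27.8 CPM in the Allantoin-H libraries. The groups were wide apart, with a 1.69-fold range among the HFD libraries and a 1.17-fold range among the Allantoin-H libraries. Usp2 was 6.35-fold higher, at 2.67 ± 0.23 on the log2 scale (SE; edgeR adjusted p = 0.00127). Predicted genes Gm39325 and Gm49380 overlap 200 of its exon bases on the opposite strand and had at most 1 count in any library.

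Ciart (ENSMUSG00000038550, chromosome 3, 95878503 to 95882251), whose promoter holds the 3 E-boxes shown above, was at 2.84, 2.57 and 1.34 CPM in HFD and at 8.43, 7.22 and 10.1 CPM in Allantoin-H. The lowest Allantoin-H library was above the highest HFD library. This was a 3.84-fold rise, at 1.94 ± 0.34 on the log2 scale (SE; edgeR adjusted p = 0.00632). A predicted gene, Gm9176, carries 1126 near-identical bases but had at most 1 count in any library.

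Among the PAR bZIP activators, Dbp and Hlf rose and Tef did not pass. Dbp (ENSMUSG00000059824, chromosome 7, 45705088 to 45710203) was at 50.2, 17.3 and 30.01 CPM in HFD replicates 1 to 3 and at 88.3, 103 and 68.8 CPM in the Allantoin-H libraries. HFD replicate 1 was the highest of its group by a wide margin and still below every Allantoin-H library. Dbp was 2.67-fold higher, at 1.42 ± 0.35 on the log2 scale (SE; edgeR adjusted p = 0.0196). The call was lost without Allantoin-H replicate 4 (1.41, edgeR adjusted p = 0.0627) or 5 (1.28, adjusted p = 0.0790). Dbp shares 539 exon bases with Sphk2 on the opposite strand, and whether the counting used strand is not given in the sources used here. Sphk2 had 329 to 694 counts per library and was at -0.23 on the log2 scale (edgeR adjusted p = 0.547), so it was not called.

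Hlf (ENSMUSG00000003949, chromosome 11, 90336536 to 90390895) was at 48.0, 43.3 and 35.6 CPM in HFD and at 78.5, 72.1 and 65.0 CPM in Allantoin-H. The spread was small in both groups and they did not overlap. The difference, 0.77 ± 0.17 on the log2 scale (SE; edgeR adjusted p = 0.0146), was the smallest among the genes called higher. It was lost without Allantoin-H replicate 4 (0.71, adjusted p = 0.0690) or 5 (0.77, adjusted p = 0.0629), and after correction of each library for transcript length and GC content (0.53, edgeR adjusted p = 0.0587).

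Tef (ENSMUSG00000022389, chromosome 15, 81802421 to 81826863) was at 137, 71.1 and 76.2 CPM in HFD replicates 1 to 3 and at 142, 168 and 114 CPM in Allantoin-H. HFD replicate 1 lay inside the range of the Allantoin-H libraries, and the other HFD libraries lay below it. Its log2 fold change was 0.58 (95% interval -0.04 to 1.19, edgeR adjusted p = 0.151). Without HFD replicate 1 it was 0.94 and was called (edgeR adjusted p = 0.0177), and without HFD replicate 2 it was 0.41. An antisense gene, Gm17597, shares 193 of its exon bases and had 0 to 4 counts per library.

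Nfil3 (ENSMUSG00000056749, chromosome 13, 52967209 to 52981073), the D-box repressor, was the only gene of the set called lower. It was at 16.4, 22.1 and 34.3 CPM in HFD replicates 1 to 3 and at 16.1, 12.2 and 10.6 CPM in Allantoin-H replicates 4 to 6. HFD replicate 1 and Allantoin-H replicate 4 were nearly level, and on the scale of library size alone the groups overlapped. Nfil3 was 1.88-fold lower, at -0.91 ± 0.29 on the log2 scale (SE; edgeR adjusted p = 0.0475), close to the threshold. It was no longer called in 9 of 16 alternatives, which include the fits without HFD replicate 2 (-0.97) or 3 (-0.57) and without Allantoin-H replicate 4 (-1.08), 5 (-0.86) or 6 (-0.78), while the sign stayed negative in all 16.

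Activators and repressor can be set against each other within a library, a ratio that does not depend on how libraries are scaled. Counts of Dbp were 3.07, 0.781 and 0.876 times those of Nfil3 in HFD replicates 1 to 3, and 5.48, 8.45 and 6.49 times in Allantoin-H replicates 4 to 6. Nfil3 thus outnumbered Dbp in HFD replicates 2 and 3, and Dbp outnumbered Nfil3 in the other libraries. On the log2 scale the ratio was 0.36 ± 1.09 (SD, n = 3) in HFD and 2.74 ± 0.31 (SD, n = 3) in Allantoin-H, a difference of 2.39. The log2 ratio of Hlf over Nfil3 was 0.86 ± 0.75 (SD, n = 3) in HFD and 2.49 ± 0.18 (SD, n = 3) in Allantoin-H. For Tef over Nfil3 it was 1.97 ± 0.99 (SD, n = 3) and 3.45 ± 0.32 (SD, n = 3). The groups did not overlap in any of these ratios, but for Tef HFD replicate 1, at 3.07, was just under the lowest Allantoin-H library, at 3.14. The 3 ratios share Nfil3 and are not separate observations. For Dbp and Hlf the separation follows from the single genes, since each of them and Nfil3 was already apart. No test was made of the ratios, since the genes were chosen with results known.

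**Figure D2:**
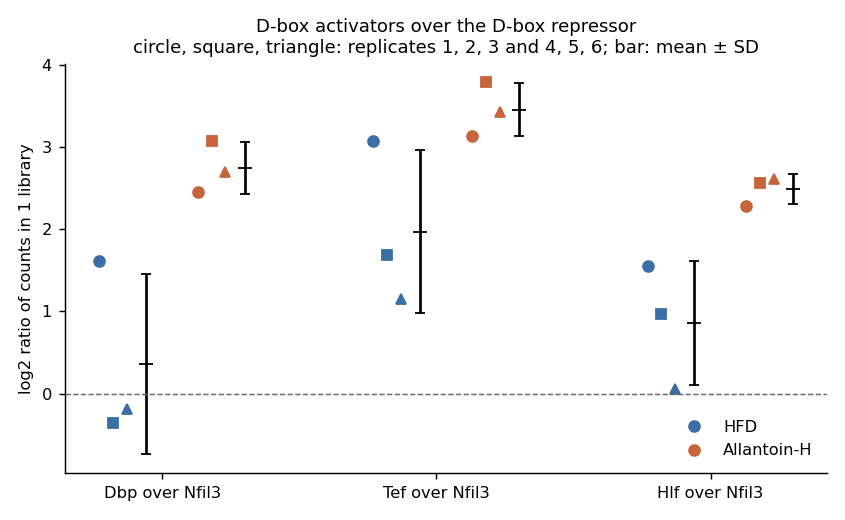
Log2 ratio of the counts of Dbp, Tef and Hlf over those of Nfil3 within each library (vertical axis), for HFD (blue) and Allantoin-H (orange), with the mean ± SD in black. The Allantoin-H libraries lie above all HFD libraries in each ratio, and HFD replicate 1 (blue circle) is the HFD library nearest to them, at 1.62 for Dbp and 1.55 for Hlf.

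The paired E-box repressors differed in level. Bhlhe40 (ENSMUSG00000030103, chromosome 6, 108660629 to 108666925) was at 21.4, 19.9 and 30.3 CPM in HFD and at 62.2, 55.7 and 54.1 CPM in Allantoin-H. The groups were well apart, 2.40-fold higher or 1.26 ± 0.20 on the log2 scale (SE; edgeR adjusted p = 0.00448). Bhlhe41 (ENSMUSG00000030256, chromosome 6, 145858243 to 145865558) was at 2.73, 1.58 and 4.10 CPM in HFD and at 6.16, 4.55 and 3.78 CPM in Allantoin-H. These groups overlapped, since HFD replicate 3 was above Allantoin-H replicate 6. Bhlhe41 differed by 0.77 on the log2 scale (95% interval -0.13 to 1.68, edgeR adjusted p = 0.186), so a change of the size seen in Bhlhe40 lies within its interval. Within a library, the log2 ratio of Bhlhe41 over Bhlhe40 was -3.17 ± 0.42 (SD, n = 3) in HFD and -3.60 ± 0.25 (SD, n = 3) in Allantoin-H, and these values overlapped. Bhlhe41 had 16 to 84 counts per library, the fewest reads of the set in Allantoin-H, and shares 1280 exon bases with a gene on the opposite strand, Gm43909, that had at most 1 count.

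**Figure D3:**
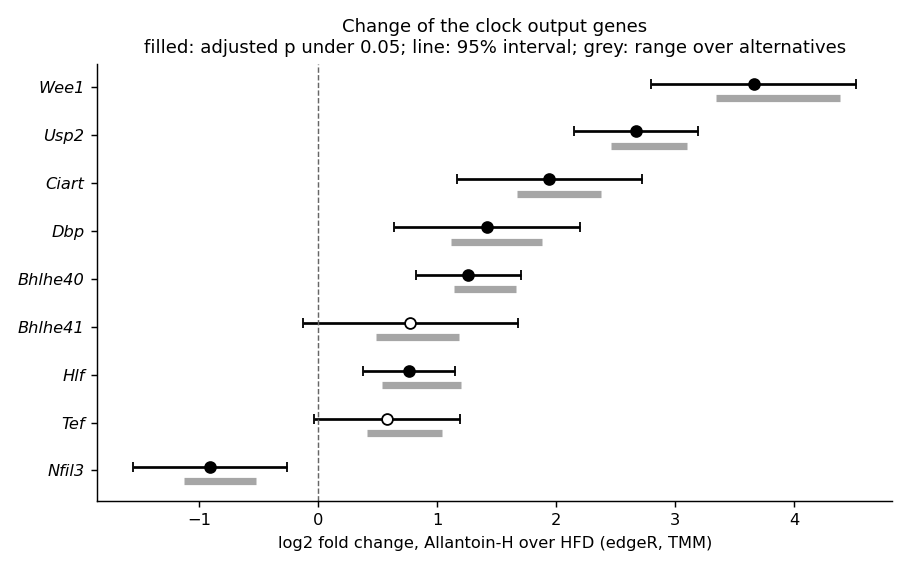
Log2 fold change of each clock output gene, Allantoin-H over HFD (horizontal axis), with its 95% interval, filled where the adjusted p was under 0.05, and the range over the alternative analyses as a grey bar. The estimates run from -0.91 for Nfil3 to 3.66 for Wee1, and the intervals of Tef and Bhlhe41 include 0.

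Compared per length, as mean CPM per kb of annotated exon, the order of the genes differed between the groups. The order within a group depends on the length used. Dbp has 2993 bases of annotated exon and a longest transcript of 1837 bases, whereas Nfil3 has 2026 in both. In HFD livers the order was Tef (12.1), Nfil3 (11.97), Dbp (10.9), Hlf (6.33), Bhlhe40 (5.07), Usp2 (1.01), Ciart (0.994), Wee1 (0.516) and Bhlhe41 (0.417). Each overlapped the next except Bhlhe40 and Usp2. In Allantoin-H livers Dbp came first at 29.0, above Tef at 17.99, without overlap. Bhlhe40 (12.2) and Hlf (10.8) overlapped each other, as did Wee1 (6.71) and Usp2 (6.41), and Usp2 and Nfil3 (6.402). Ciart (3.799) and Bhlhe41 (0.719) stood apart from their neighbours. Within the HFD group, replicate 1 was the highest of the 3 for Dbp, Tef, Hlf, Ciart and Usp2 and the lowest for Nfil3, and replicate 3 was the highest for Nfil3, Bhlhe40, Bhlhe41 and Wee1. Dbp varied 2.91-fold and Wee1 3.48-fold among the HFD libraries, against 1.50-fold and 1.18-fold among the Allantoin-H libraries.

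The core clock genes were read beside their outputs. For this list and those that follow, the shares over all tested genes were 11.3% called higher and 13.0% called lower. All lists were chosen with earlier results of these data known. Of 6 E-box driven core genes, 2 were called higher and 1 lower, and the list's median was 0.11 on the log2 scale. That median has no stable sign, since it was -0.17 without HFD replicate 2 and -0.02 after correction for length and GC content, and it was larger without HFD replicates 1 (0.20) or 3 (0.35), without Allantoin-H replicates 4 (0.21) or 6 (0.19) and on the scale of library size alone (0.52), and smaller without Allantoin-H replicate 5 (0.02). Cry2, a repressor of BMAL1 and CLOCK, was at 15.3, 15.4 and 13.9 CPM in HFD and at 31.2, 33.7 and 23.1 CPM in Allantoin-H (0.98 on the log2 scale, edgeR adjusted p = 0.00844). Per3, a period gene, was at 12.9, 3.95 and 6.69 CPM in HFD and at 17.8, 26.7 and 14.9 CPM in Allantoin-H (1.35 on the log2 scale, edgeR adjusted p = 0.0390). Per1, another period gene of this list, went the other way (-1.23 on the log2 scale, edgeR adjusted p = 0.0126). It fell from 29.4, 19.2 and 41.6 CPM in HFD to 13.9, 12.2 and 12.4 CPM in Allantoin-H. The call of Per3 was lost without HFD replicate 2 (1.03) or 3 (1.25) or any Allantoin-H library (1.07 to 1.52), and that of Per1 without Allantoin-H replicate 5 (-1.19) or 6 (-1.20) and on the scale of library size alone (-0.83). Not called by edgeR were Nr1d2 (0.51, adjusted p = 0.197), Per2 (-0.29, adjusted p = 0.559) and Nr1d1 (-0.49, adjusted p = 0.225), the last encoding REV-ERBα, the repressor that acts on ROR elements.

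None of the 3 tested RORE driven core genes, which share the night phase of Nfil3, was called by edgeR, DESeq2 or limma-voom, and 1 had an unadjusted p under 0.05. Their median of -0.27 was -0.29 and -0.24 without HFD replicates 2 and 3, and 0.14 on the scale of library size alone. The filter was set anew in each fit, and Npas2 joined the list where it passed. With it the median was -0.68 without a filter and -0.69 without HFD replicate 1. It was -0.74, -0.67 and -0.73 without Allantoin-H replicates 4, 5 and 6. These medians are of 4 genes and cannot be set against that of 3. Arntl was at 6.11, 8.59 and 2.09 CPM in HFD and at 2.71, 2.31 and 2.43 CPM in Allantoin-H, with HFD replicate 3 below every Allantoin-H library (-1.16 on the log2 scale, edgeR adjusted p = 0.104). Clock was at 40.4 to 43.1 CPM in HFD and at 32.5 to 36.0 CPM in Allantoin-H, without overlap, at -0.27 on the log2 scale (edgeR adjusted p = 0.199). On the scale of library size alone the groups overlapped for Clock. Cry1 was at 5.68 to 6.32 CPM in HFD and 4.99 to 6.55 CPM in Allantoin-H (edgeR adjusted p = 0.974). Npas2, the relative of Clock, did not pass the filter of the main fit, at 0.764, 1.78 and 1.25 CPM in HFD and 0.0733, 0.177 and 0.270 CPM in Allantoin-H.

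Genes known as liver targets of the PAR bZIP factors and NFIL3 were read next. Of 8 tested, 5 were called higher and 1 lower, and the list's median was 1.09 on the log2 scale. Over all tested genes, 11.3% were called higher and 13.0% lower. This list too was chosen with earlier results known, so its count is a description and not independent evidence. On the log2 scale Ppara, a nuclear receptor of fatty acid oxidation, rose by 2.02 (adjusted p = 0.00389), Cyp7a1, the rate-limiting enzyme of bile acid synthesis, 1.81 (adjusted p = 0.00660), Por, the electron donor of the P450 enzymes, 1.29 (adjusted p = 0.00803), Cyp2a5, a P450 enzyme, 1.26 (adjusted p = 0.00600) and Alas1, the first enzyme of haem synthesis, 0.91 (adjusted p = 0.0371), all with edgeR. Cyp7a1 was at 31.8, 22.1 and 30.5 CPM in HFD and at 61.1, 151 and 84.1 CPM in Allantoin-H, and Por was at 122 to 172 and 260 to 473 CPM. The first 4 of these genes were called in all 16 alternatives. The call of Alas1 was lost without HFD replicate 1 (0.68) or 2 (0.89) or any Allantoin-H library (0.83 to 1.04), and after correction for length and GC content (0.89). Fgf21, a liver hormone repressed by NFIL3, went from 27.3, 4.54 and 2.84 CPM in HFD to 1.76, 0.710 and 2.43 CPM in Allantoin-H, at -2.82 on the log2 scale (edgeR adjusted p = 0.0403). This rested on HFD replicate 1, without which it was -1.18 and not called, and the call was also lost without any one Allantoin-H library (-3.23 to -2.44). The call of Fgf21 was lost as well with limma-voom (-2.21) and after correction for length and GC content (-2.44). Nr1i3 did not pass in edgeR (-0.08, adjusted p = 0.881), and Lpl (-1.62, adjusted p = 0.146) was at 271 CPM in HFD replicate 2 and at 25.9 to 55.9 CPM elsewhere. Cyp2b10 and Cyp2a4 had too few counts to be tested.

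**Figure D4:**
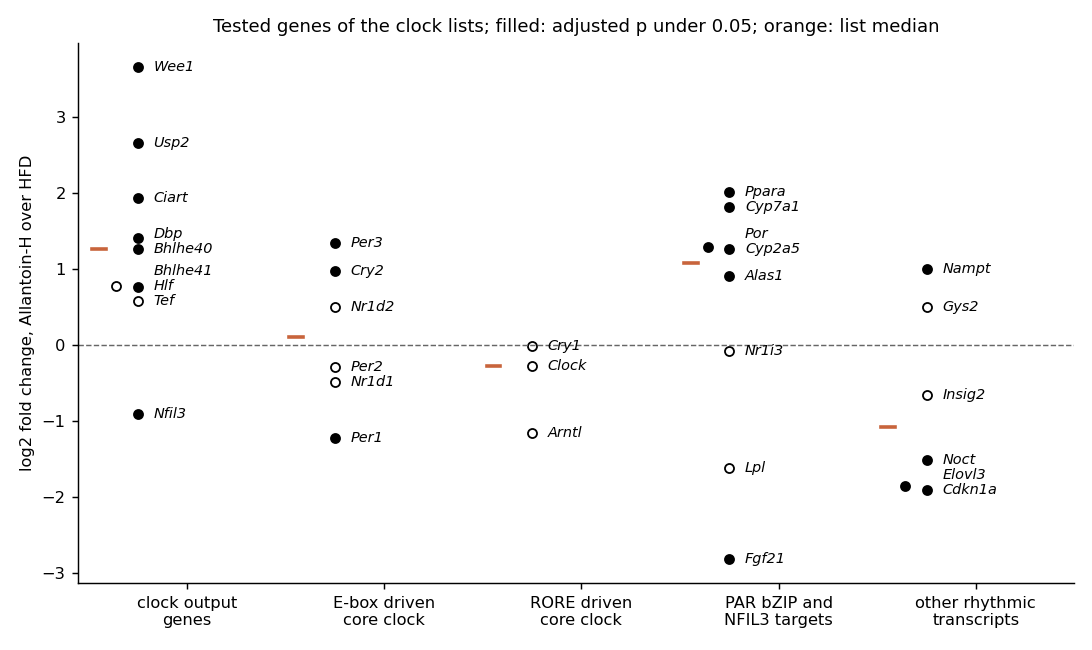
Log2 fold change (vertical axis) of the tested genes of 5 lists, from the clock output genes to other rhythmic liver transcripts, filled where the adjusted p was under 0.05, with each list's median in orange. The medians are 1.26, 0.11, -0.27, 1.09 and -1.08 from left to right, and those of the core clock lists (0.11 and -0.27) change sign under an alternative analysis.

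Of 6 other transcripts known to be rhythmic in liver, 1 was called higher and 3 lower. Nampt, an enzyme of NAD synthesis, was at 0.997 on the log2 scale (adjusted p = 0.0343), whereas Cdkn1a, a cell cycle inhibitor, was at -1.92 (adjusted p = 0.0152), Elovl3, a fatty acid elongase, at -1.86 (adjusted p = 0.0217) and Noct, a phosphatase that peaks at night, at -1.51 (adjusted p = 0.0393), all with edgeR. Without 1 library each, Nampt was not called in 5 of 6 fits (0.82 to 1.17), Noct in 5 of 6 (-1.77 to -0.98), Cdkn1a in 2, without Allantoin-H replicate 4 (-1.73) or 5 (-1.64), and Elovl3 in 2, without Allantoin-H replicate 5 (-1.69) or 6 (-1.67). The calls of Nampt and Noct stood without HFD replicate 3 and without HFD replicate 2, respectively. That of Noct was also lost with limma-voom (-1.31) and on the scale of library size alone (-1.11). Its groups overlapped, with HFD replicate 2 at 14.9 CPM and Allantoin-H replicate 5 at 18.4 CPM. Cdkn1a was at -2.50 without Allantoin-H replicate 6, and Elovl3 at -1.15 without HFD replicate 2. Gys2, glycogen synthase (0.51, edgeR adjusted p = 0.0564), and Insig2, a regulator of sterol synthesis (-0.66, adjusted p = 0.0788), did not pass. None of 6 clock kinase and ubiquitin ligase genes was called by edgeR, with 2 at an unadjusted p under 0.05, 1 called by DESeq2 and none by limma-voom.

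Cues that reach these genes from outside the clock were read from lists of hormone and feeding genes. Of 6 glucocorticoid responsive genes, Fkbp5 was called higher (0.77 on the log2 scale) and Tsc22d3 lower (-1.52). Of 6 fasting genes, Cpt1a (0.95) and Ppargc1a (1.0) were called higher. The others were not called by edgeR, and 3 of them had negative estimates. These were Igfbp1 (-2.73, adjusted p = 0.0928), Angptl4 (-1.38, adjusted p = 0.0630) and Pck1 (-0.58, adjusted p = 0.144), while G6pc was at 0.07 (adjusted p = 0.839). Igfbp1 was at 290 CPM in HFD replicate 3 and at 10.2 to 17.8 CPM elsewhere. Of 5 tested feeding genes, Srebf1 (0.64) was called higher. The medians of the 3 lists were 0.06, -0.25 and -0.19, against -0.03 for all tested genes, and none of the 3 kept its sign. The glucocorticoid median was -0.08 without HFD replicate 2, -0.19 and -0.26 without Allantoin-H replicates 4 and 6, 0.17 and 0.30 without HFD replicate 3 and Allantoin-H replicate 5, and -0.11 with limma-voom. For fasting genes it was 0.20 without HFD replicate 3 and 0.17 on the scale of library size alone. For feeding genes it was 0.27 and 0.54 without HFD replicates 2 and 3 and 0.22 on that scale. The part of hormones and feeding in the clock genes was not tested. Without Allantoin-H replicate 5 none of these 5 calls held, at 0.73, -1.49, 0.75, 0.87 and 0.62 in the order named. Of the other single-library fits, Fkbp5 was also lost without Allantoin-H replicate 4 (0.73), Srebf1 without HFD replicate 2 (0.64) and Allantoin-H replicates 4 (0.61) and 6 (0.70), and Tsc22d3 and Ppargc1a in all except the fit without HFD replicate 3. Tsc22d3 was further lost with limma-voom (-1.29) and on the scale of library size alone (-1.06), and Ppargc1a after correction for length and GC content (0.76).

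For each clock output gene, the genes with the most similar profile were sought among 11244 tested genes, by the root mean square difference of log2 CPM over the 6 libraries after centring each gene on its mean. The nearest to Dbp was Per3, at 0.13 log2 units, and the nearest to Hlf was Fkbp5, at 0.07. Lancl2 (0.06) and Ccdc25 (0.09) were nearest to Bhlhe40, Abca3 (0.17) and Hbp1 (0.19) to Usp2, and Zfp759 (0.17) and Pptc7 (0.21) to Ciart. The nearest to Nfil3 were Mrps6 (0.08) and Nrros (0.12). Cox11 (0.09) and Wnt5b (0.10) were nearest to Tef, and Cyp4a10 (0.20) and Fnip2 (0.20) to Bhlhe41. Nearest to Wee1 were Ptp4a1 at 0.35 and Acot3 at 0.50. This measure is not scaled by the size of a gene's change, which was largest in Wee1, so these distances cannot be set directly against the others. The second nearest to Dbp was Lrrc56 (0.17) and to Hlf Slc25a23 (0.07).

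The libraries held 11304059 to 14562848 gene counts. The mitochondrial chromosome took 17.9% to 36.5% of them in HFD, highest in replicate 1, and 6.92% to 11.4% in Allantoin-H. Scaling by library size alone raised the median log2 fold change of all tested genes by 0.41, and then Nfil3 was at -0.52 (adjusted p = 0.263) and Tef was called higher at 1.04, while no clock output gene changed its sign. Markers of cell types are given beside the shares over all tested genes, 11.3% called higher and 13.0% lower. Hepatocyte markers summed to 90189 to 92202 CPM in HFD and 72182 to 100123 CPM in Allantoin-H, with 1 of 8 called higher and 4 lower. Stellate cell markers summed to 129 to 189 and 320 to 360 CPM, with 5 of 7 called higher, and Kupffer cell markers to 105 to 248 and 298 to 336 CPM, with 3 of 7 called higher. Sinusoidal endothelial markers (90.0 to 141 and 109 to 162 CPM), cholangiocyte markers (34.3 to 159 and 21.7 to 76.7 CPM), lymphocyte markers (3.68 to 6.81 and 2.50 to 5.28 CPM) and blood cell markers (332 to 1333 and 876 to 1053 CPM) overlapped between the groups in their sums. With edgeR, 1 gene was called lower in each of the first 2 lists and none was called in the others. The endothelial gene called lower was Stab1 (-0.94 on the log2 scale), whereas the median of its list was 0.50. Kdr (1.19, edgeR adjusted p = 0.0648), Lyve1 (1.11, adjusted p = 0.0654) and Pecam1 (0.75, adjusted p = 0.110) were higher without a call. Of the 6 endothelial genes, DESeq2 called 3 and limma-voom 2. Adipocyte markers summed to 71.3 to 510 CPM in HFD, highest in replicate 2, and to 38.5 to 92.1 CPM in Allantoin-H. Adipoq, Plin1, Lep and Retn were at 0 counts in HFD replicates 1 and 3 and at 520, 498, 115 and 200 counts in HFD replicate 2, without which the 6 clock output genes called higher were still called and Nfil3 was not (-0.97, edgeR adjusted p = 0.0627). In bulk tissue, fewer cells of a type and less RNA per cell cannot be told apart, and the part of cell composition in the clock genes was not tested.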

How the data were processed

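Liver RNA libraries, 3 HFD and 3 Allantoin-H, were read on an Illumina HiSeq and filtered by the authors, who deposited raw whole-number read counts per gene, not normalized. The build is GRCm38 (mm10) per the labels, and the aligner, counting tool, annotation release and strand setting are not given in the sources used here. Of 54961 entries, 429 without an Ensembl identifier (0.197% to 0.306% of the counts) were not used, and 54495 of 54532 identifiers were found in GENCODE M21.

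Counts were tested with edgeR 4.0.16 in R 4.3.3 (TMM, filterByExpr, quasi-likelihood, group as the only term). The standard error was derived from the F statistic. Log2 CPM used a prior count of 2. The procedure was tested on simulated data. Near-identical copies (95% identity, 200 bases) were searched with BLAST 2.17.0.

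The clock output genes and all lists were chosen with earlier results of these data known. Named genes are the 9 clock output genes, up to 5 called genes per list by p, and the 2 nearest profiles per gene. Uncalled list genes and Fgf21, beyond these, were named after their values were seen. One gene of the core clock list is not reported here, and the list's count and median were computed without it. The rule for the set counts 10 genes, and 9 are listed and analysed here.

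Alternatives were RLE, upper-quartile and library-size scaling, DESeq2 1.42.0, limma-voom 3.58.1, no filter, a minimum of 10 counts per library, an adjusted p under 0.01, leaving out the mitochondrial chromosome or each library, and correcting each library for transcript length and GC content.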

Additional observations from a re-analysis of the deposited data

How the results depend on the processing

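Of 143 values of the 9 clock output genes under these alternatives, 124 stayed on their side of the threshold, 16 calls were lost, 3 were gained and none changed sign. Bhlhe40, Ciart and Usp2 were called in all 16 alternatives and Wee1 in the 15 that tested it, since 1 library was under 10 counts. At an adjusted p under 0.01, Dbp (1.42), Hlf (0.77) and Nfil3 (-0.91) were not called, 0 of the 9 genes were called lower, and over all genes 443 were higher and 573 lower, against 1446 and 1666. Scaling by library size gave 3162 genes higher and 674 lower, 0 of the 9 lower, Tef at 1.04 and Nfil3 at -0.52. Without a filter Tef was called at 0.62. Nfil3 was not called with limma-voom (-0.89, adjusted p = 0.0501) or with the length and GC trend removed (-0.80), so that 0 of the 9 were lower. Hlf was not called with that trend removed (0.53). The cause was not tested. Leaving out each library gave 460 to 1773 genes higher and 564 to 2008 lower, 4 to 7 of the 9 genes called higher and 0 to 1 lower, with log2 fold changes of 1.11 to 1.87 for Dbp, 0.41 to 0.94 for Tef, 0.66 to 0.86 for Hlf and -1.13 to -0.57 for Nfil3. The lowest counts over all genes came without Allantoin-H replicate 5, where 4 of the 9 were called higher. No paired analysis was possible because the labels and methods name no pairing between the groups. With 3 libraries against 3, an exact permutation test of 1 gene cannot go below 0.10.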
